A study of Sus scrofa with 4 samples.

Results

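The small leucine-rich proteoglycans are a family of secreted matrix proteins. The symbols of 10 members were looked up among the 21280 features of the deposited tables, and 9 of the 10 were found: DCN, BGN, ASPN, FMOD, LUM, PRELP, KERA, OMD and OGN. The symbol PODN (podocan) was not among them, and the Ensembl identifier that RefSeq gives PODN carries the symbol SCP2 in the files, so PODN was given no value. The members were followed in single-cell data from the pig, Sus scrofa, and its meniscus, a pad of fibrocartilage in the knee joint. There were 4 libraries: lateral white zone, medial white zone, lateral red zone and medial red zone. In textbook anatomy the white zone is the inner part without vessels and the red zone the vascularised outer part. The labels name no animal, age, breed or treatment, and all libraries went through the same dissection from the synovium and the same digestion, with a pronase blend and then collagenase P.

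Proteins of this family have a short core of leucine-rich repeats that binds collagen, and most of them carry glycosaminoglycan chains that project from the fibril. They set how thick collagen fibrils grow and how they are spaced, and several of them bind TGF-beta. Class I proteins (decorin, biglycan, asporin) carry chondroitin or dermatan sulfate or, in asporin, a stretch of aspartate. Class II proteins (fibromodulin, lumican, PRELP, keratocan, osteomodulin) carry keratan sulfate chains, sulfated tyrosines or, in PRELP, a basic end that binds heparan sulfate. Osteoglycin belongs to class III. In meniscus, decorin and biglycan are known as proteoglycans of the collagen network.

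Most of the genes lie in clusters on the genome. In the RefSeq annotation of Sscrofa11.1, the build of the files, DCN (ENSSSCG00000000915), LUM (ENSSSCG00000000916) and KERA (ENSSSCG00000000917) follow each other on chromosome 5 from 91678601 to 91802362, a stretch of 123.8 kb. OGN (ENSSSCG00000034607), OMD (ENSSSCG00000008073) and ASPN (ENSSSCG00000008072) follow each other on chromosome 3 from 42116521 to 42192902, within 76.38 kb. FMOD (ENSSSCG00000015270) and PRELP (ENSSSCG00000015271) are neighbours on chromosome 9 between 64062995 and 64207008. BGN (ENSSSCG00000012766) stands apart from the rest on chromosome X, from 124282048 to 124295450. PODN is annotated on chromosome 6, from 159155251 to 159179456, next to SCP2.

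After filtering, 26135 of 27782 barcodes were kept, 5439 to 7319 per library, with 8917633 to 13418952 UMIs per library and a median of 1446 to 1585 UMIs per cell. Cells were grouped by 11 lists of 8 marker genes, none of which is a member: a cell went to the list of which it showed the most markers, if these were at least 2 and no other list had as many. The cartilage list (COL2A1 and others) took 1264 lateral white, 737 medial white, 35 lateral red and 3 medial red cells. The fibrochondrocyte list (COMP, CILP and others) took 3539, 4940, 599 and 414 cells in the same order. The fibroblast list (PI16, MFAP5 and others) took 55, 24, 1085 and 2194 cells, and the tendon-like list (TNMD, MYOC and others) 59, 37, 214 and 358. The matrix lists overlap in their cells: 1821 of the 3539 lateral white fibrochondrocyte-list cells were only 1 marker ahead, and 1161 of the 1264 lateral white cartilage-list cells also showed 2 markers of another list. The groups are therefore ranges and not cell types. Vascular cells made up more of the red zone: the endothelial list took 1.71% of lateral and 2.69% of medial white cells against 13.6% and 11.8% of red cells. Across the libraries 78 barcode sequences occurred more than once.

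Levels are given as CPM, the UMIs of a gene per 1000000 UMIs summed over the cells of a library or group. Sums were tested with edgeR's quasi-likelihood test, and a call means a Benjamini-Hochberg adjusted p below 0.05 over all genes tested. With 2 libraries a zone and no animals named, these p-values speak only of these libraries and cover no spread between animals. The zone fits have 1 residual degree of freedom, so edgeR takes a gene's variance largely from the trend over all genes. Their standard errors and p-values are therefore not the gene's own spread between libraries. For the zone in fibrochondrocyte-list cells the standard error of KERA was 0.26 by edgeR and 1.11 by DESeq2, a second tool. That of DCN was 0.46 and 0.29 in the same order. The fitted fold changes use TMM scaling. Over all cells its factors were 0.811 and 0.880 for the lateral and medial white and 1.17 and 1.20 for the lateral and medial red libraries. The fitted zone changes over all cells so lie above the plain ratio of the CPM values. Without that scaling the median log2 fold change of all genes moved to -0.49, against -0.01 with it. The calls over all genes were then 926 higher and 5162 lower in the white zone, against 2291 and 2829. For the zone in fibroblast-list cells the factors were 0.931 and 1.30 for the lateral and medial white libraries. They were 0.919 and 0.897 for the lateral and medial red ones, so the fitted changes there lie below the plain ratio.

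The white zone held more DCN, BGN, FMOD, PRELP and OMD than the red zone, and less LUM and KERA. OGN and ASPN passed no test over all cells. Of the 9 members 5 were higher, against 18.6% of all 12334 genes tested, and 2 were lower, against 22.9%, so 7 of 9 were called where 41.5% of all genes were. Their median log2 fold change was 1.33, against -0.01 over all genes. Between the medial and the lateral meniscus edgeR called 0 of 9 members, where it called 0.251% of all genes (0.0405% higher and 0.211% lower in the medial meniscus). The lowest adjusted p of a member was 0.291, for KERA. DESeq2 also called 0 of 9, while edgeR with no filter on low counts called KERA (1.32 ± 0.29, adjusted p = 0.0163). In sums over all cells, or over cells of several lists, more cells of a type and more RNA per cell cannot be told apart.

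**Figure D1:**
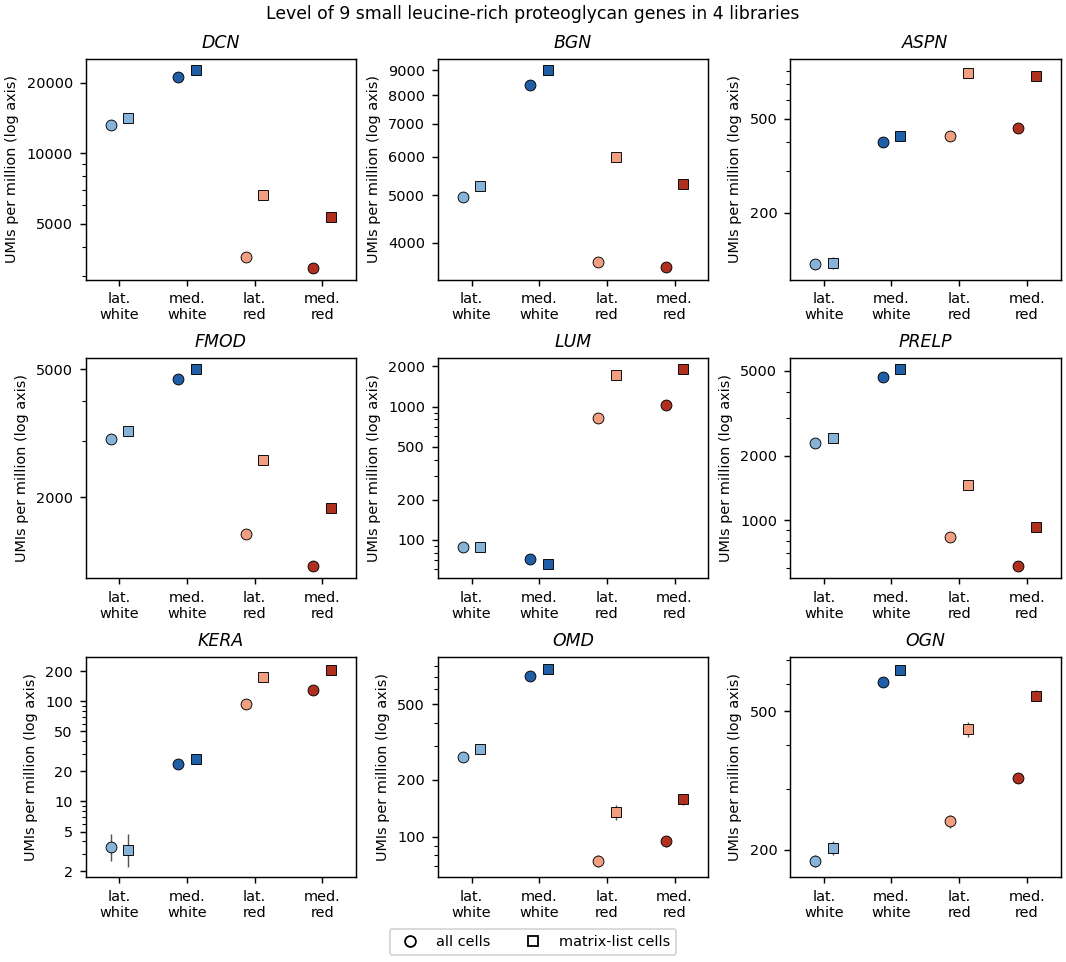
CPM of the 9 measured genes in each library on log axes, over all cells (circles) and over cells of the cartilage, fibrochondrocyte, fibroblast and tendon-like lists (squares), with exact 95% Poisson intervals that cover counting error only. DCN over all cells stands at 13278 and 21182 in the white against 3611 and 3233 in the red libraries, while LUM stands at 87.4 and 71.8 in the white against 821 and 1020 in the red libraries.

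DCN encodes decorin, which coats type I collagen fibrils and limits their lateral fusion. It had 13278 CPM in lateral white and 21182 in medial white cells, against 3611 in lateral red and 3233 in medial red cells. Both white libraries stood above both red ones, and the log2 fold change was 2.78 ± 0.51 (SE, adjusted p = 0.00102). Among matrix-list cells alone (cartilage, fibrochondrocyte, fibroblast and tendon-like lists together) DCN had 14210 and 22782 CPM in the white and 6622 and 5365 in the red libraries, with a log2 fold change of 1.92 ± 0.49 (adjusted p = 0.0237) that passed no test without either red library (adjusted p = 0.122 and 0.227). Within fibrochondrocyte-list cells it had 16076 and 24089 CPM in the white and 10087 and 9473 in the red libraries. These libraries did not overlap either, yet the fit made no call, at 1.16 ± 0.46 (adjusted p = 0.0683). DESeq2 did (adjusted p = 0.00276), and so did edgeR with no filter on low counts (1.24, adjusted p = 0.00502). With cells of 2 lists left out edgeR called it as well (1.12, adjusted p = 0.0135). The value was 1.39 without the lateral white and 0.94 without the medial white library. In fibroblast-list cells DCN had 4090 and 5535 CPM in the white against 3999 and 4235 in the red libraries, a log2 difference of -0.08 ± 0.66 that passed no test.

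DCN was seen in most cells of the matrix lists, from 66.7% of medial white fibroblast-list cells upwards, and in a minority of mural-list, endothelial-list and myeloid-list cells. Cartilage-list cells had 10691, 14936 and 11683 CPM in lateral white, medial white and lateral red, so in lateral red they lay above fibrochondrocyte-list cells, with no call between the groups (fibrochondrocyte over cartilage 0.38 ± 0.27). In 95.4% to 99.8% of fibrochondrocyte-list cells at least 1 DCN UMI was seen, or in 95.1% to 99.8% after thinning to 1000 UMIs, which leaves out shallower cells and kept 2882, 4440, 529 and 325 of these cells in lateral white, medial white, lateral red and medial red. Myeloid-list cells showed DCN in 22.7% and 26.0% of white and 5.69% and 5.56% of red cells, or 14.0%, 18.4%, 4.80% and 4.82% after thinning. Their median depth was 1572, 1346, 1435 and 1328 UMIs, near that of fibrochondrocyte-list cells at 1374, 1619, 1678 and 1360 UMIs. DCN in myeloid-list cells stood at 3.40% to 9.54% of the whole library's CPM, and whether it is background was not tested. Its CPM there was 611 and 2020 in the white against 123 and 140 in the red libraries. Mural-list cells had 1210 and 861 CPM in the white against 80.9 and 38.6 in the red libraries, and endothelial-list cells 64.2 and 596 against 39.3 and 45.0. In the lateral white library the mural value stands on 201 UMIs in 122 cells and the endothelial one on 9 UMIs in 119 cells, at median depths of 964 and 943 UMIs.

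BGN encodes biglycan, the closest relative of decorin, which also binds TGF-beta. It had 4972 and 8399 CPM in lateral and medial white cells, against 3655 and 3568 in lateral and medial red cells. The zones did not overlap, and the log2 fold change of 1.33 ± 0.41 was called (adjusted p = 0.0210). The call was lost without TMM scaling (0.84, adjusted p = 0.0889), without either red library and with cells of at least 1000 UMIs (adjusted p = 0.0556). Among matrix-list cells the zones overlapped, with 5217 and 8983 CPM in the white and 5987 and 5270 in the red libraries, and no call was made (0.61 ± 0.42, adjusted p = 0.310), except without the lateral white library (0.95, adjusted p = 0.0290). Fibrochondrocyte-list cells had 5403 and 9354 CPM in the white and 8098 and 9159 in the red libraries, and fibroblast-list cells 4268 and 5401 against 4603 and 4772. In both groups the zones overlapped and BGN passed no test.

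ASPN encodes asporin, which has no glycosaminoglycan chain and binds collagen and TGF-beta. Over all cells its CPM was 121 and 398 in lateral and medial white cells and 424 and 458 in lateral and medial red cells. The lateral white library stood apart, and the log2 fold change was -0.51 ± 0.32 (adjusted p = 0.216). It was called at -1.0 without TMM scaling (adjusted p = 0.0159) and at -1.31 ± 0.23 without the medial white library (adjusted p = 8.83e-04), and stood at 0.28 without the lateral white one. Among matrix-list cells ASPN had 123 and 423 CPM in the white zone, against 784 and 758 in the red zone (-1.43 ± 0.42, adjusted p = 0.0392). That call was lost without the lateral white (-0.59), the lateral red or the medial red library and without a term for the meniscus (adjusted p from 0.107 to 0.265). Within fibrochondrocyte-list cells it had 156 and 468 CPM in the white against 350 and 389 in the red libraries, with no call, but was called at -1.02 without the medial white library (adjusted p = 0.00550).

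FMOD and PRELP, neighbours on chromosome 9, were both higher in the white zone. FMOD encodes fibromodulin, which carries keratan sulfate and sulfated tyrosines and guides the cross-linking of collagen. Its CPM was 3045 and 4652 in lateral and medial white cells, against 1538 and 1225 in lateral and medial red cells. Without overlap between zones, the log2 fold change was 1.94 ± 0.37 (adjusted p = 0.00127). PRELP encodes a protein that links collagen to the heparan sulfate of basement membranes and cell surfaces. Its CPM was 2288 and 4700 in the lateral and medial white and 839 and 610 in the lateral and medial red libraries, again with no overlap (2.68 ± 0.41, adjusted p = 2.67e-04). Both calls held in each of the 10 alternatives run for that comparison.

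Among matrix-list cells PRELP rose to 2425 and 5110 CPM in the white zone, against 1467 and 926 in the red zone (1.92 ± 0.47, adjusted p = 0.0201), and lost the call without either red library (adjusted p = 0.0522 and 0.171). FMOD had 3220 and 5006 CPM there against 2618 and 1853. These values did not overlap, but the fit made no call (1.19 ± 0.40, adjusted p = 0.0581), while DESeq2 and 6 further alternatives did. In fibrochondrocyte-list cells FMOD had 3352 and 5170 CPM in the white against 4611 and 5109 in the red libraries and PRELP 2684 and 5499 against 2510 and 2784. Neither was called there (FMOD -0.07 ± 0.36, PRELP 0.69 ± 0.34). PRELP was called without the lateral white library (1.16, adjusted p = 1.56e-04), and for FMOD that library was the lowest.

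LUM encodes lumican, a keratan sulfate proteoglycan best known from cornea and skin, where it keeps collagen fibrils thin and ordered. It had 87.4 and 71.8 CPM in lateral and medial white cells against 821 and 1020 in lateral and medial red cells. Both white libraries stood far below both red ones, and LUM fell by 3.04 ± 0.26 on the log2 scale (adjusted p = 3.29e-06). Among matrix-list cells the difference was -4.25 ± 0.32 (adjusted p = 2.00e-04), with 88.1 and 65.6 CPM in the white against 1725 and 1908 in the red libraries. Both calls held in every alternative run. Within fibrochondrocyte-list cells LUM had 96.2 and 68.6 CPM in the white against 338 and 252 in the red libraries (-1.70 ± 0.24, adjusted p = 8.21e-11), lost without the lateral red library (-1.34, adjusted p = 0.104). Fibroblast-list cells had 1439 and 882 CPM in the white against 2853 and 2442 in the red libraries. They did not overlap, but these white cells number 55 and 24, and no call was made (-1.48 ± 0.56, adjusted p = 0.224), except without the lateral white library (-2.18, adjusted p = 1.41e-04).

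Most LUM of the red zone came from fibroblast-list cells, which held 77.5% of its UMIs in lateral red and 89.3% in medial red cells. In the white zone fibrochondrocyte-list cells held 52.4% and 65.9%. A LUM UMI was seen in 54.5% and 50% of white and 81.1% and 76.1% of red fibroblast-list cells, or 50%, 45.0%, 78.3% and 72.6% after thinning. Myeloid-list cells showed LUM in 0.00%, 2.00%, 2.02% and 2.19% of lateral white, medial white, lateral red and medial red cells. The 0 of 66 lateral white cells allow up to 4.55% of cells with a UMI by counting error alone, which limits no share of cells that express the gene, and the medial white share is 1 cell of 50.

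KERA encodes keratocan, a keratan sulfate proteoglycan of cornea that is also found in tendon. It had 3.5 and 23.4 CPM in lateral and medial white cells against 94.8 and 129 in lateral and medial red cells. The white values rest on 43 and 314 UMIs, the red ones on 845 and 1381. The zones did not overlap and KERA fell by 2.96 ± 0.39 on the log2 scale (adjusted p = 8.41e-05). Among matrix-list cells it had 3.28 and 26.4 CPM in the white against 176 and 208 in the red libraries (-3.81 ± 0.56, adjusted p = 0.00248). Both calls held in every alternative run. In fibrochondrocyte-list cells KERA had 4.61 and 29.7 CPM in the white against 112 and 116 in the red libraries (-2.94 ± 0.26, adjusted p = 2.85e-26), and DESeq2 made no call there (adjusted p = 0.0992), nor did edgeR without either red library (adjusted p = 0.129 and 0.0701).

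OMD encodes osteomodulin, a sulfated protein best known from bone that binds collagen. It had 263 and 705 CPM in lateral and medial white cells against 74.7 and 94.6 in lateral and medial red cells, with no overlap (2.85 ± 0.28, adjusted p = 7.83e-06). It was also higher in matrix-list cells, at 290 and 770 CPM in the white against 135 and 158 in the red libraries (2.02 ± 0.32, adjusted p = 0.00326), and in fibrochondrocyte-list cells, at 349 and 856 against 165 and 110 (2.12 ± 0.27, adjusted p = 1.20e-12). The matrix-list call was lost without either red library (adjusted p = 0.0598 and 0.0621), and the fibrochondrocyte-list call under DESeq2 (adjusted p = 0.166) and without the medial red library (adjusted p = 0.114). In fibroblast-list cells OMD had 69.0 and 428 CPM in the white against 114 and 162 in the red libraries, overlapping and with no call.

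OGN encodes osteoglycin, or mimecan, which was first described in bone and takes part in collagen fibril formation. It had 186 and 608 CPM in lateral and medial white cells against 242 and 321 in lateral and medial red cells. The white libraries stood at either side of the red ones, and the log2 fold change of 0.76 ± 0.28 missed the threshold (adjusted p = 0.0502). It passed with no filter on low counts (adjusted p = 0.0210) and, at 1.54, without the lateral white library (adjusted p = 2.79e-04), and came to -0.05 without the medial white one. Matrix-list cells had 202 and 655 CPM in the white against 445 and 554 in the red libraries, with no call (-0.12 ± 0.34), except for a lower level without the medial white library (-0.89, adjusted p = 0.0305). In fibrochondrocyte-list cells OGN had 247 and 717 CPM in the white against 307 and 256 in the red libraries. It was called there at 0.72 ± 0.26 (adjusted p = 0.0432), although the lateral white library lay below the lateral red one, and the call was lost in 8 of 11 alternatives, falling to 0.02 without the medial white library.

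**Figure D2:**
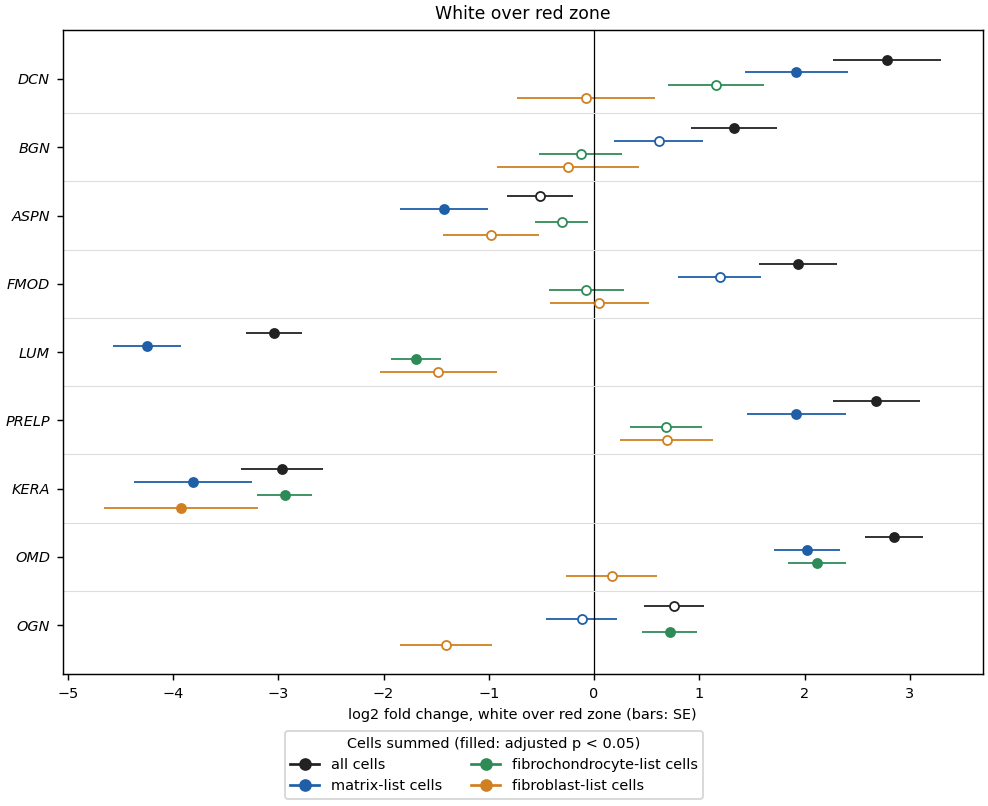
Log2 fold change of white over red zone for the 9 genes, from edgeR fits on sums over all cells, matrix-list cells, fibrochondrocyte-list cells and fibroblast-list cells. Bars are standard errors and filled points have an adjusted p below 0.05. DCN, PRELP and OMD lie to the right and LUM and KERA to the left over all and over matrix-list cells, and the fibroblast-list values rest on 55 and 24 white cells.

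Among matrix-list cells 3 members were higher in the white zone (DCN, PRELP, OMD) and 3 lower (ASPN, LUM, KERA), so 6 of 9 were called, against 29.1% of 11015 genes, with medians of 0.61 over the members and -0.01 over all genes. Of all genes 1348 (12.2%) were higher and 1852 (16.8%) lower, against 766 and 3169 without TMM scaling. The matrix-list sums differ in their mix of lists between zones. Fibroblast-list cells were 55 of 4917 lateral white and 24 of 5738 medial white matrix-list cells. In the red zone they were 1085 of 1933 lateral and 2194 of 2969 medial ones. Within fibrochondrocyte-list cells 4 of 9 were called, OMD and OGN higher and LUM and KERA lower, against 14.4% of 9405 genes. Of all genes 597 (6.35%) were higher and 755 (8.03%) lower, against 383 and 999 without TMM scaling. In fibroblast-list cells 1 of 9 was called, KERA, against 1.72% of 7493 genes, with 43 (0.574%) higher and 86 (1.15%) lower, or 60 and 75 without TMM scaling. KERA had 1 UMI in each white fibroblast-list group there, and 378 and 810 in the red ones, and DESeq2 made no call (adjusted p = 0.0743). The median of all genes in that fit was -0.24, so the other values of fibroblast-list cells are to be read against it. Without the lateral white library ASPN (-1.35) and PRELP (1.10) were called there as well, and OGN without the medial white one (-1.62).

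The zone difference of some members was not the same in both groups. A test of the difference itself, chosen after the levels were seen, set the white over red change of fibrochondrocyte-list cells against that of fibroblast-list cells. It called 3 of 9 members, against 1.54% of 8925 genes, with a median over all genes of 0.35, and 68 (0.762%) higher and 69 (0.773%) lower calls against 32 and 137 without TMM scaling. OGN differed by 2.18 ± 0.39 (adjusted p = 5.53e-06), with a white over red CPM ratio of 0.807 and 2.80 in fibrochondrocyte-list cells of the lateral and medial meniscus and 0.383 and 0.548 in fibroblast-list cells. OMD differed by 2.07 ± 0.41 (adjusted p = 9.18e-05), with ratios of 2.12 and 7.79 against 0.605 and 2.64. DCN differed by 1.32 ± 0.39 (adjusted p = 0.0413), with ratios of 1.59 and 2.54 against 1.02 and 1.31. All 3 calls were lost without the medial red library, with at least 3 markers per cell and without the library as a term, the one for OMD under DESeq2 as well and the one for DCN in 5 further alternatives.

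Between groups of the same libraries, the members fell on opposite sides. Cartilage-list cells had more DCN, FMOD and PRELP than fibroblast-list cells and less LUM and ASPN, over the 3 libraries with at least 20 cells of both. FMOD had 3035, 4083 and 5222 CPM in cartilage-list cells of lateral white, medial white and lateral red, against 1212, 1711 and 1147 in fibroblast-list cells, with no overlap (1.99 ± 0.35, adjusted p = 5.44e-07). LUM had 13.2, 23.7 and 147 CPM in cartilage-list cells against 1439, 882 and 2853 in fibroblast-list cells (-5.13 ± 0.39, adjusted p = 5.89e-36). ASPN had 26.4, 112 and 36.8 CPM against 621, 588 and 1093 (-3.34 ± 0.36, adjusted p = 2.12e-18), so for both genes each cartilage-list value lay below each fibroblast-list value. PRELP (1.81 ± 0.34) and DCN (1.84 ± 0.39) were also higher. In all 5 of the 8 members tested were called, against 13.6% of 5641 genes, of which 366 (6.49%) were higher and 400 (7.09%) lower, or 223 and 716 without TMM scaling. OGN passed as lower in 3 alternatives (-1.35 to -1.72) and BGN as higher under DESeq2. The calls of DCN, FMOD and PRELP were lost without the lateral white library (adjusted p = 0.322, 0.0705 and 0.143), and KERA was too low to test.

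Fibrochondrocyte-list cells stood on the same side as cartilage-list cells against fibroblast-list cells, over all 4 libraries. Here FMOD (2.22 ± 0.29), PRELP (2.32 ± 0.29), DCN (2.05 ± 0.34), BGN (1.13 ± 0.30) and OMD (1.00 ± 0.31) were higher and LUM (-3.08 ± 0.28) and ASPN (-0.96 ± 0.28) lower. That made 7 of 9 members, against 13.7% of 7737 genes, of which 540 (6.98%) were higher and 522 (6.75%) lower, or 303 and 1010 without TMM scaling. Calls of FMOD, PRELP, DCN and LUM held in every alternative. BGN lost its call without the lateral red library (adjusted p = 0.178), ASPN in 5 alternatives and OMD in 8, among them the red zone libraries alone, where OMD came to 0.24. OGN had no call over all 4 libraries (0.10 ± 0.31), but was lower in the red zone libraries alone (-0.75 ± 0.18, adjusted p = 2.76e-04) and higher in the white zone libraries alone (1.39 ± 0.36, adjusted p = 0.00503). KERA, at -0.52 ± 0.24 with no call, passed as lower in the red zone libraries alone (-0.57) and without TMM scaling (-0.76).

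Cartilage-list and fibrochondrocyte-list cells differed in other members. OGN, OMD, ASPN and LUM were higher in fibrochondrocyte-list cells, in 4 of 8 members tested against 8.95% of 7903 genes (5.63% higher and 3.32% lower). OGN had 247, 717 and 307 CPM in fibrochondrocyte-list cells of lateral white, medial white and lateral red, against 104, 243 and 49.0 in cartilage-list cells (1.49 ± 0.21, adjusted p = 2.19e-09). OMD had 349, 856 and 165 CPM against 171, 211 and 110 (1.37 ± 0.22, adjusted p = 1.44e-07). Within each library both were higher in fibrochondrocyte-list cells, while the values of different libraries overlapped between the groups. ASPN (2.33 ± 0.21) and LUM (2.03 ± 0.21) were higher as well, and DCN, BGN, FMOD and PRELP made no call, at 0.12 to 0.38. With cells of 2 lists left out, which leaves 103, 41 and 2 cartilage-list cells in the lateral white, medial white and lateral red libraries, these 4 were called as well, at 0.90 to 1.37. Without the library as a term all 4 calls were lost (adjusted p from 0.153 to 0.389), and the one for OMD also without the medial white library (0.93, adjusted p = 0.0685).

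Tendon-like-list cells, named for TNMD and MYOC, had more of 5 members than fibroblast-list cells and less LUM. Over 4 libraries FMOD (1.59 ± 0.18), PRELP (1.71 ± 0.17), DCN (1.60 ± 0.19), OMD (0.92 ± 0.25) and KERA (0.85 ± 0.20) were higher than in fibroblast-list cells and LUM (-3.17 ± 0.30) lower, so 6 of 9 were called, against 15.4% of 3025 genes, of which 223 (7.37%) were higher and 244 (8.07%) lower, or 139 and 439 without TMM scaling. KERA had 0.00, 83.9, 309 and 331 CPM in tendon-like-list cells of lateral white, medial white, lateral red and medial red, against 9.86, 26.7, 190 and 203 in fibroblast-list cells. It was higher in tendon-like-list cells of 3 of the 4 libraries. In medial white this rests on 5 UMIs in 37 tendon-like-list cells against 1 UMI in 24 fibroblast-list cells. Lateral white had 0 UMIs against 1. The lateral white group had 0 of 59 cells with KERA, which allows up to 5.08% of cells with a UMI by counting error alone and, at this depth, limits no share of cells that express the gene. KERA was seen in 33.2% and 37.2% of tendon-like-list cells of the lateral and medial red zone against 20.3% and 23.6% of fibroblast-list cells, or 24.5% and 27.7% against 12.7% and 16.1% after thinning. In endothelial-list cells of the red zone KERA was seen in 0.135% and 0.263%. The call was lost without the library as a term (adjusted p = 0.664) and with cells of 2 lists left out (adjusted p = 0.0546). OMD lost its call in 6 alternatives, while ASPN passed as lower in 6 and OGN as higher in 3.

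**Figure D3:**
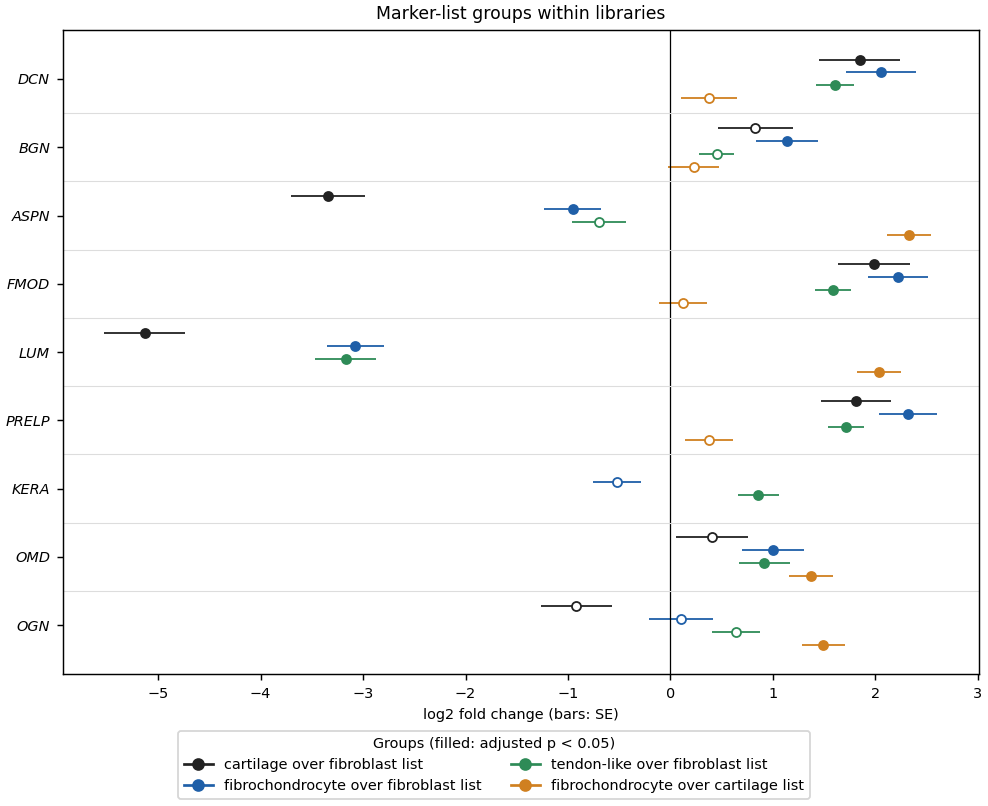
Log2 fold change of the 9 genes between marker-list groups within libraries (cartilage, fibrochondrocyte and tendon-like over fibroblast list, and fibrochondrocyte over cartilage list), with standard errors, filled where the adjusted p is below 0.05. DCN, FMOD and PRELP lie to the right and LUM to the left in all 3 contrasts with fibroblast-list cells.

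Mural-list cells, the contractile cells that wrap vessels, had more BGN and ASPN than endothelial-list cells, and more LUM, FMOD and PRELP. BGN had 2642, 3426, 1482 and 1693 CPM in mural-list cells of lateral white, medial white, lateral red and medial red, against 78.4, 394, 87.6 and 102 in endothelial-list cells. Each mural value lay above each endothelial one, and in a comparison chosen after the levels were seen the log2 fold change was 3.94 ± 0.25 (adjusted p = 7.73e-08). ASPN had 427, 383, 161 and 110 CPM in mural-list against 14.3, 21.9, 11 and 18.1 in endothelial-list cells (3.48 ± 0.29, adjusted p = 7.96e-07). LUM was at 2.75 ± 0.52, FMOD at 1.71 ± 0.35 and PRELP at 1.69 ± 0.32, so 5 of the 7 members tested were called, against 38.6% of 6367 genes (19.4% higher and 19.2% lower). DCN made no call (1.12 ± 0.47, adjusted p = 0.0792) and was called in 5 alternatives, at 1.16 to 1.90. OMD lay on the other side with no call (-0.70 ± 0.72), and was called lower in the red zone libraries alone (-2.17, adjusted p = 0.00437) and without the medial white library (-1.63, adjusted p = 0.0493), on 2.03 to 77.7 CPM in mural-list and 0.00 to 26.9 CPM in endothelial-list cells. PRELP lost its call without the library as a term (adjusted p = 0.218).

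A BGN UMI was seen in 86.1% and 93.8% of white and 78.3% and 84.2% of red mural-list cells, or 89.3%, 95.2%, 72.2% and 73.8% after thinning. In endothelial-list cells it was seen in 9.24%, 18.3%, 7.96% and 8.02%, at a median depth of 943, 1257, 1115 and 1377 UMIs against 964, 998, 1337 and 1471 in mural-list cells. Myeloid-list cells had 155, 1192, 187 and 303 CPM of BGN. Over lateral white, medial white, lateral red and medial red, FMOD had 427, 263, 128.5 and 83.9 CPM in mural-list cells. Myeloid-list cells had 155, 552, 92.4 and 93.5 CPM of FMOD. PRELP had 337, 287, 58.9 and 39.2 CPM in mural-list against 155, 389, 37.7 and 58.9 in myeloid-list cells. For both genes the mural value was the higher in the lateral and the lower in the medial libraries. BGN in mural-list cells reached 40.6% to 53.1% of the whole library's CPM, while in endothelial-list cells it reached 1.58% to 4.69%. LUM in mural-list cells of the medial white library, at 389 CPM and 65 UMIs in 128 cells, exceeded that of the whole library.

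**Figure D4:**
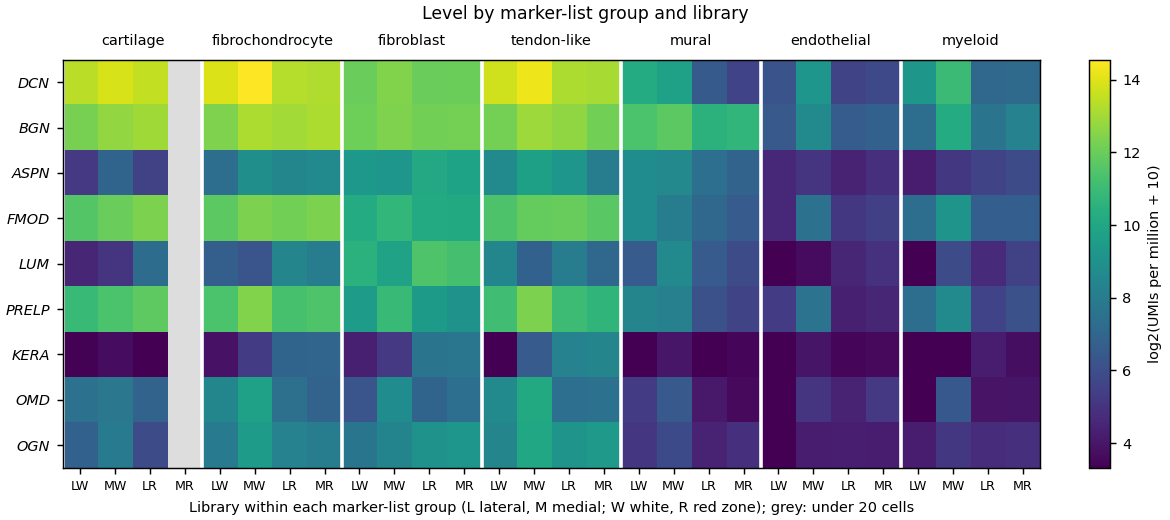
Level of the 9 genes as log2(CPM + 10) in each marker-list group and library, the white before the red libraries. The LUM row is brightest in fibroblast-list cells (2853 and 2442 CPM in the red libraries), and the BGN row stays bright in mural-list cells while the DCN row darkens there. Grey marks a group with under 20 cells.

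Within matrix-list and unassigned cells of the red zone, LUM was higher at each further fibroblast marker that a cell showed, and FMOD and PRELP were lower at the fibroblast end. Cells were thinned to 1000 UMIs for this description, since deeper cells show more markers. Shallower cells were left out, so that over all lists 5713 of 6946 lateral white, 6394 of 7319 medial white, 4084 of 5439 lateral red and 4885 of 6431 medial red cells entered. In the lateral red library LUM rose over 0, 1, 2, 3, 4 and at least 5 fibroblast markers through 263, 1013, 1868, 2932, 3068 and 4254 CPM, and in the medial red library through 226, 696, 1462, 2648, 2897 and 3455 CPM. FMOD went the other way, through 3630, 3530, 2014, 1205, 882 and 910 CPM in the lateral and 3338, 2954, 1652, 1178, 818 and 910 CPM in the medial red library. PRELP followed FMOD, at 1986 CPM with no and 627 CPM with at least 5 markers in the lateral and 1858 and 582 CPM in the medial red library. OGN increased from 251 to 627 CPM in the lateral and from 264 to 730 CPM in the medial red library between these ends. KERA was lowest without fibroblast markers, at 86.2 and 95.5 CPM, and highest with 2 of them, at 229 and 261 CPM.

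**Figure D5:**
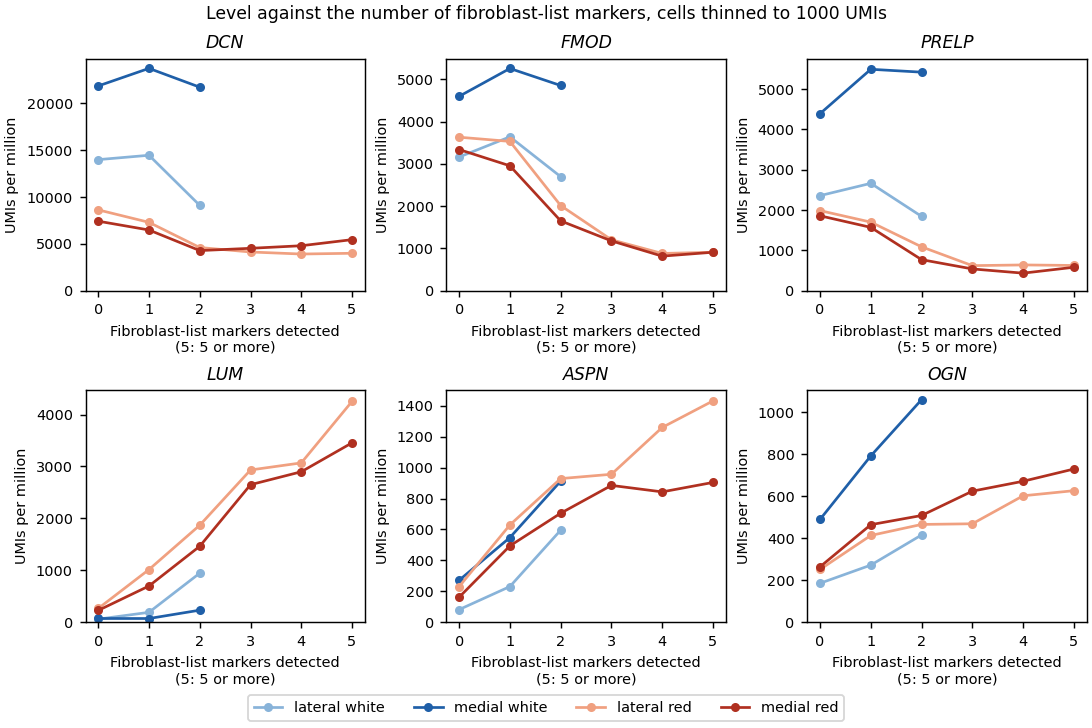
CPM of 6 members in matrix-list and unassigned cells thinned to 1000 UMIs, against the number of fibroblast-list markers seen in a cell, for each library. In the red libraries LUM climbs to 4254 and 3455 CPM at 5 or more markers while FMOD drops to 910 CPM in both, and the white libraries end at 2 markers because fewer than 20 cells showed more.

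A second gradient ran along the cartilage markers of the white zone. With 0, 1, 2, 3, 4 and at least 5 cartilage markers ASPN had 240, 152, 58.2, 40.9, 19.4 and 28.4 CPM in the lateral and 599, 370, 222, 141, 114 and 95 CPM in the medial white library. OMD declined alongside, with 341 CPM without any marker and 135 CPM with at least 5 in the lateral white library and 923 and 207 CPM in the medial white one. LUM had 253 CPM without any marker and 0 UMIs in the 141 lateral white cells with at least 5, which allows up to 21.3 CPM by counting error alone. FMOD had 2771 CPM without any marker and 4461 CPM with at least 5 in the lateral white library, but 4745 and 4380 CPM in the medial white one. DCN had less at the cartilage end in both, with 14726 and 10085 CPM in the lateral and 23474 and 14408 CPM in the medial white library.

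Detection of ASPN and of the neighbouring OGN was compared cell by cell. In fibrochondrocyte-list cells, in a separate draw of 1000 UMIs per cell, OGN was seen in 59.3% of ASPN-positive against 31.9% of ASPN-negative cells of the medial white library, and in 36.2% against 15.6% of the lateral white one. For the red libraries the shares were 38.1% against 15.6% in the lateral and 31.6% against 16% in the medial library. In the white libraries OMD was seen in 40.8% of ASPN-positive against 22.2% of ASPN-negative lateral cells and in 63.0% against 38.3% of medial cells. In the red libraries OMD was seen in 11.5% against 12.7% of lateral and 5.26% against 10.4% of medial cells, which are only 113 and 57 ASPN-positive cells. In red fibroblast-list cells KERA was seen in 10.2% of LUM-positive against 22.8% of LUM-negative lateral and 13.8% against 23.6% of medial cells. The order was the other way in tendon-like-list cells, at 26.3% against 22.5% in lateral and 57.1% against 23.9% in medial red, and in fibrochondrocyte-list cells, at 17.1% against 7.16% and 8.57% against 6.21%, each with only 19 to 82 LUM-positive cells. These shares describe cells of 1 library each and carry no test.

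Over 31 sums of a library and a group with at least 20 cells, each member's log2(CPM + 10) was set against 2576 genes with a symbol and a mean of at least 50 CPM. The sums share libraries and depth, so the correlations are descriptions. DCN was most like PRELP (Pearson r = 0.98), FBLN1 (0.97) and FMOD (0.97), and FMOD was most like PRELP (0.98), DCN and FAP. PRELP was most like DCN, COMP (0.98), itself a marker of the fibrochondrocyte list, and FMOD. BGN was most like TNC (0.97), COL5A1 and PCOLCE, while LUM was most like VCAN (0.93), TMEM100 and ISLR. ASPN was most like TMEM100 (0.92), ECM2 (0.92), its neighbour on chromosome 3, and COL6A1. OGN was most like MRC2 (0.94), MFAP2 and FBLN1, and OMD was most like FBLN1 (0.92), a feature that the files name PAQR9, and DCN. KERA had under 50 CPM on average and was not ranked. Between members of a genomic cluster the correlation was 0.98 for FMOD and PRELP, 0.90 for OMD and OGN, 0.83 for ASPN and OGN, 0.71 for ASPN and OMD, 0.59 for LUM and KERA, 0.56 for DCN and LUM and 0.50 for DCN and KERA. Members on different chromosomes ranged as high, with 0.98 for DCN and PRELP and 0.95 for BGN and FMOD.

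Genes that work with the family were taken from 7 lists with 64 genes, of which 62 were found and 57 tested over all cells. In the white zone 26 were higher and 13 lower, and 18 made no call, against 18.6% and 22.9% of all genes. The list of tyrosine sulfation and sulfate donor genes, which also holds sulfate transporters, had 3 of 6 higher and 1 lower. Higher were PAPSS2 (3.33 ± 0.20), which makes the sulfate donor, the sulfate transporter SLC26A2 (2.36 ± 0.32) and PAPSS1 (1.62 ± 0.23). Of 10 chondroitin and dermatan sulfate genes 6 were higher, with XYLT1 (3.07 ± 0.20), which starts the chain, and the sulfotransferases CHST3 (1.10 ± 0.21) and CHST11 (0.96 ± 0.20), and 1 was lower. Among 6 keratan sulfate genes B4GALT4 (1.12 ± 0.22) and B3GNT7 (2.37 ± 0.56) were higher and 2 were lower, with the sulfotransferase CHST2 at -3.44 ± 0.58. Of 5 other leucine-rich repeat genes CHADL (4.53 ± 0.27) and CHAD (2.69 ± 0.29) were higher and 2 were lower, with ECM2 at -1.09 ± 0.23.

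Among the collagens that the family binds 3 of 10 were higher in the white zone, among them COL3A1 (2.60 ± 0.66) and COL5A2 (1.17 ± 0.28), and COL14A1 was lower (-1.39 ± 0.32). The TGF-beta list had 6 of 10 higher, with LTBP2 (2.39 ± 0.19), a microfibril protein, and the receptors TGFBR1 (2.24 ± 0.20) and TGFBR3 (1.22 ± 0.20), and 1 lower. The list of proteases that process the family, which also holds PCOLCE, itself no protease, had 4 of 10 higher and 5 lower. In that list the aggrecanase ADAMTS4 (-4.67 ± 0.24), the gelatinase MMP2 (-3.61 ± 0.31) and TLL1 (-4.01 ± 0.41), which trims procollagens, had the lowest p. Over matrix-list cells the 55 genes tested gave 13 higher, 21 lower and 21 with no call, where 12.2% of all genes were higher and 16.8% lower. None of the 10 collagens was higher there, while 5 were lower. Of 10 chondroitin and dermatan sulfate genes 4 were higher and 3 lower, and of 5 keratan sulfate genes 0 were higher and 2 lower. The TGF-beta list had 3 of 10 higher and 2 lower, and the tyrosine sulfation and sulfate donor list 3 of 6 higher and 1 lower. Of 9 genes in the protease list 1 was higher and 5 were lower. Of 5 other leucine-rich repeat genes 2 were higher and 3 lower.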

How the data were processed

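Per the labels' protocols, cells were captured with the 10x Genomics 3′ v3.1 kit, and per the submitters' processing notes reads were handled with Cell Ranger 6.1.2 on Sscrofa11.1. The authors deposited 1 filtered matrix of UMI counts per library, with 9666319 to 14902274 UMIs, and no cell annotation. Of 21280 features 14811 were named in the deposited tables and 694 from the reference. A cell was kept if it had 500 UMIs or more from 200 genes or more and no more than 20% of them from 13 mitochondrial genes. Scrublet's own threshold marked 1, 0, 135 and 216 cells as doublets in lateral white, medial white, lateral red and medial red and so hardly worked in the white libraries. The highest scores were removed instead, at 0.8% per 1000 barcodes (436, 488, 262 and 372 cells). Marker lists lacked COL9A2, TNFRSF11B, PCOLCE2 and CD7, and groups under 20 cells in a library were left out.

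UMI counts were summed per library, or per library and group, and tested with edgeR 4.0.16 (quasi-likelihood, TMM, filterByExpr, Benjamini-Hochberg) in R 4.3.3. Zone fits had the meniscus as a term and group fits the library. The marker genes stayed in the group fits and in their adjustment of p, and were left out only of the counts and medians over all genes. A library's groups share its cells' source, so the library pairs them. In the zone fits the number that pairs a white with a red library is the meniscus that the labels give. Standard errors were taken from the fold change and its F statistic. Alternatives were no TMM scaling, DESeq2 1.42.0, no filter, each library left out (the second term is then dropped), no doublet removal, no second term or replicate block, at least 1000 UMIs, at least 3 markers and cells with 2 markers of a further list left out. Red or white libraries alone, mural over endothelial cells and the zone difference between groups were added after seeing the data. The edgeR step was tested on simulated data.

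The text names all members found, the 3 genes most like each and up to 3 genes with the lowest p per pathway list. Members and lists were chosen with earlier results of these data known. Intervals cover counting error only. Other tools were Python 3.11.15, scanpy 1.11.5, numpy 2.4.6, scipy 1.17.1 and pandas 2.3.3.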

Additional observations from a re-analysis of the deposited data

Results flagged for a closer look

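Some members had white over red CPM ratios on opposite sides of 1 in the 2 menisci, beyond counting error, and the difference between the menisci was not tested. For OGN over all cells the ratio was 1.89 for the medial and 0.768 for the lateral meniscus. In matrix-list cells it was 1.18 for the medial and 0.455 for the lateral meniscus, and in fibrochondrocyte-list cells 2.80 for the medial and 0.807 for the lateral one. ASPN in fibrochondrocyte-list cells had a ratio of 1.20 for the medial and 0.444 for the lateral meniscus. BGN in matrix-list cells had 1.70 for the medial and 0.871 for the lateral meniscus. In each of these the lateral white library held the lower white value. Each ratio rests on 1 library a side.

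The white over red change differed between fibrochondrocyte-list and fibroblast-list cells for 3 members, by edgeR's test of the difference itself on the log2 scale: OGN by 2.18, OMD by 2.07 and DCN by 1.32. The white fibroblast-list cells behind it number 55 and 24, and the median over all genes in that fit was 0.35. All 3 calls were lost with at least 3 markers per cell and without the library as a term.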

How the results depend on the processing

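Of 1044 member values under an alternative, 860 kept their direction and their side of the threshold, 75 lost a call, 53 gained one and 56 changed sign. Over all cells DCN, FMOD, PRELP, OMD, LUM and KERA kept their zone calls in all 10 alternatives. Most sign changes were of values with no call. Where a library is left out of a zone or meniscus fit the other term is dropped, so the meniscus values then hold part of the zone difference. For the other changes below the cause was not tested. Depth limits KERA in the white fibroblast-list cells, at 1 UMI per library, and OMD and OGN there rest on 7 to 20 UMIs per library.

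DESeq2 called 3105 genes for the zone over all cells, 1647 in matrix-list, 363 in fibrochondrocyte-list and 35 in fibroblast-list cells. It called 465 genes for cartilage over fibroblast, 577 for fibrochondrocyte over fibroblast, 157 for fibrochondrocyte over cartilage, 282 for tendon-like over fibroblast and 60 for the zone difference, against 137 by edgeR. OMD was then 0.17 for mural over endothelial cells and PRELP -0.046 for the zone difference. Without TMM scaling 50 genes were called between menisci, and LUM came to 0.018 there. The same setting gave DCN 0.20 and BGN 0.026 for the zone in fibroblast-list cells, OMD -0.023 for cartilage over fibroblast, OGN -0.29 for fibrochondrocyte over fibroblast, and BGN -0.31 and PRELP -0.43 for the zone difference.

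With no filter on low counts 142 genes were called between menisci and 721 for tendon-like over fibroblast. FMOD was then 0.013 for the zone in fibrochondrocyte-list and -0.080 in fibroblast-list cells, and 0.14 for the zone difference, where LUM was 0.038. With no doublet removal, and with at least 1000 UMIs, 3 genes were called between menisci, against 31. With no second term 0 genes were called there and LUM was 0.19, OGN was 0.078 for the zone in matrix-list cells, and 450 and 53 genes were called for the zone in fibrochondrocyte-list and fibroblast-list cells.

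Without the replicate block, that is, without the pairing by library, 1333 genes were called for cartilage over fibroblast, 7 for fibrochondrocyte over cartilage, 168 for tendon-like over fibroblast and 18 for the zone difference. With at least 3 markers the counts were 378 for cartilage over fibroblast and 38 for the zone difference, with OGN -0.44 for fibrochondrocyte over fibroblast and BGN -0.030 and KERA -0.33 for the zone difference. With cells of a further list left out 683 genes were called for the zone in fibrochondrocyte-list cells, 76 for fibrochondrocyte over cartilage, 275 for tendon-like over fibroblast and 68 for the zone difference. OGN was then -0.48 for fibrochondrocyte over fibroblast, and BGN -0.21, ASPN -0.30, LUM 0.66 and KERA -1.49 for the zone difference.

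In the red libraries alone 1798 genes were called for fibrochondrocyte over fibroblast, 818 for tendon-like over fibroblast and 3886 for mural over endothelial cells, and OGN was -0.75 in the first. In the white libraries alone the counts were 333, 128 and 988 in that order, and KERA was 0.41 in the first.

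Leaving out each library in turn gave 2270 to 5067 calls for the zone over all cells, with ASPN from -1.31 to 0.28 and OGN from -0.045 to 1.54. Between menisci it gave 0 calls throughout, with DCN from -1.86 to 2.12, BGN from -0.64 to 1.04, FMOD from -1.31 to 1.27, LUM from -2.32 to 2.11, PRELP from -1.80 to 2.03, KERA from -0.69 to 3.95 and OMD from -1.30 to 2.79. For the zone it gave 917 to 3117 calls in matrix-list cells, with OGN from -0.89 to 0.67. In fibrochondrocyte-list cells it gave 165 to 972, with BGN from -0.45 to 0.22, ASPN from -1.02 to 0.44 and FMOD from -0.31 to 0.19. In fibroblast-list cells it gave 48 to 190, with DCN from -0.17 to 0.090, FMOD from -0.054 to 0.17 and OMD from -1.16 to 1.02. The group contrasts ranged over 253 to 690 calls for cartilage over fibroblast (OMD from -0.15 to 0.81), 431 to 1102 for fibrochondrocyte over fibroblast (OGN from -0.36 to 0.56), 160 to 645 for fibrochondrocyte over cartilage, 103 to 636 for tendon-like over fibroblast and 1101 to 3101 for mural over endothelial cells. The zone difference ranged over 26 to 172 calls, with BGN from -0.083 to 0.67, ASPN from -0.12 to 1.85, FMOD from -0.17 to 0.27 and LUM from -0.28 to 0.24.

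No value was had for cartilage over fibroblast with cells of a further list left out or in the red libraries alone, for fibrochondrocyte over cartilage in the red libraries alone, or for the zone in fibroblast-list cells with at least 3 markers or further-list cells left out, since groups fell under 20 cells. The medial red library is not in the contrasts with cartilage-list cells.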
